A study of Homo sapiens with 12 samples.

Results

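The genes of cholesterol and fatty acid synthesis were followed in SET-2 cells, a human acute myeloid leukemia line per the labels, that carried an insR or a wild-type (WT) form of LSD1 and were exposed to the LSD1 inhibitor GSK-LSD1 or to DMSO. The 32 genes were chosen by symbol for their place in the pathway, with earlier results of these data known. Counts of calls among them are therefore no independent support. They were 8 enzymes from acetyl-CoA to the prenyl diphosphates and 11 enzymes from squalene to cholesterol. The others were 5 regulators of sterol-responsive transcription and sterol transport, and 8 enzymes of fatty acid synthesis and desaturation. Of the 32 genes, 31 had a row among the 63677 genes of the count files. Enough reads for a test were found in 29, beside 12864 genes tested in all. ACACA was not analysed here, because the identifier listed for it has no row. CYP51A1, which demethylates lanosterol, had 1 read over the 12 libraries, and HSD17B7, a sterol ketone reductase, had 37 reads over the 12 libraries. These counts were too low for a test. CYP51A1 shares exon sequence on the same strand with AC000120.2 and AC000120.3 in GENCODE 29, and HSD17B7 has 2 named pseudogenes, and the low counts do not show low expression. Whether reads were lost in counting was not tested.

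The 4 groups held 3 libraries each: insR cells in 250 nM GSK-LSD1, insR cells in DMSO at 0.1% of the volume, WT cells in 250 nM GSK-LSD1 and WT cells in DMSO at 0.1% of the volume, all for 48 hours. The insR cells are a drug-resistant SET-2 line with an arginine inserted between leucine 659 and asparagine 660 of LSD1, written Leu659_Asn660insArg. Whether the line is a single clone, and whether the 3 libraries of a group came from separate cultures, is not stated in the labels, so p-values measure the spread between these libraries, which may be technical. LSD1 is a histone demethylase that works with corepressors, and GSK-LSD1 is a small molecule that blocks it.

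Cells build cholesterol from acetyl-CoA through mevalonate, isoprenoid diphosphates, squalene and lanosterol, and build long-chain fatty acids from the same acetyl-CoA. Most of these genes are transcribed under the sterol regulatory element binding proteins, made from SREBF1 and SREBF2, which the escort protein SCAP carries to the Golgi when membrane sterol is low and which INSIG proteins hold back in the endoplasmic reticulum when sterol is high. SREBF2 is known mainly for the cholesterol genes and SREBF1 mainly for the fatty acid genes.

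The libraries held between 4837096 and 10141155 reads in genes. They were made from polyA RNA with a kit that reads the 3′ ends of transcripts. Levels are given as CPM, counts scaled to the TMM-adjusted size of each library, and are compared for a gene between groups and not between genes. In bulk RNA, fewer cells expressing a gene and less of its RNA per cell cannot be told apart. A gene is called where the adjusted p of edgeR's quasi-likelihood test, with Benjamini-Hochberg adjustment over all 12864 genes, was below 0.05. PTPRC, CD33, CD34 and KIT, which mark blood and myeloid progenitor cells, were present in every group, the myeloid granule gene MPO averaged 0.164 to 0.734 CPM, and the summed levels of 5 lymphoid markers (5.10 CPM at most) and of 5 epithelial, stromal and liver markers (6.10 CPM at most) were low.

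In WT cells the pathway was lower under GSK-LSD1. Summed over the 31 genes, GSK-LSD1 libraries held 1948, 1900 and 1922 CPM, against 3270, 3195 and 3218 CPM in DMSO libraries. Of the 29 tested genes 22 were called lower, where 22.5% of all tested genes were called lower, and 1 was called higher, where 22.7% of all genes were. Every GSK-LSD1 library lay below every DMSO library in 22 of the 29, a pattern seen in 25.4% of all tested genes. They are the same 22 that were called lower, so the pattern adds no separate support. The median log2 fold change of the 29 genes was -0.94, against 0.01 over all genes tested. The calls covered each step of the pathway: 6 of 8 mevalonate enzymes, 7 of 9 tested sterol enzymes, 3 of 5 regulators and carriers, and 6 of 7 tested fatty acid enzymes were lower.

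**Figure D1:**
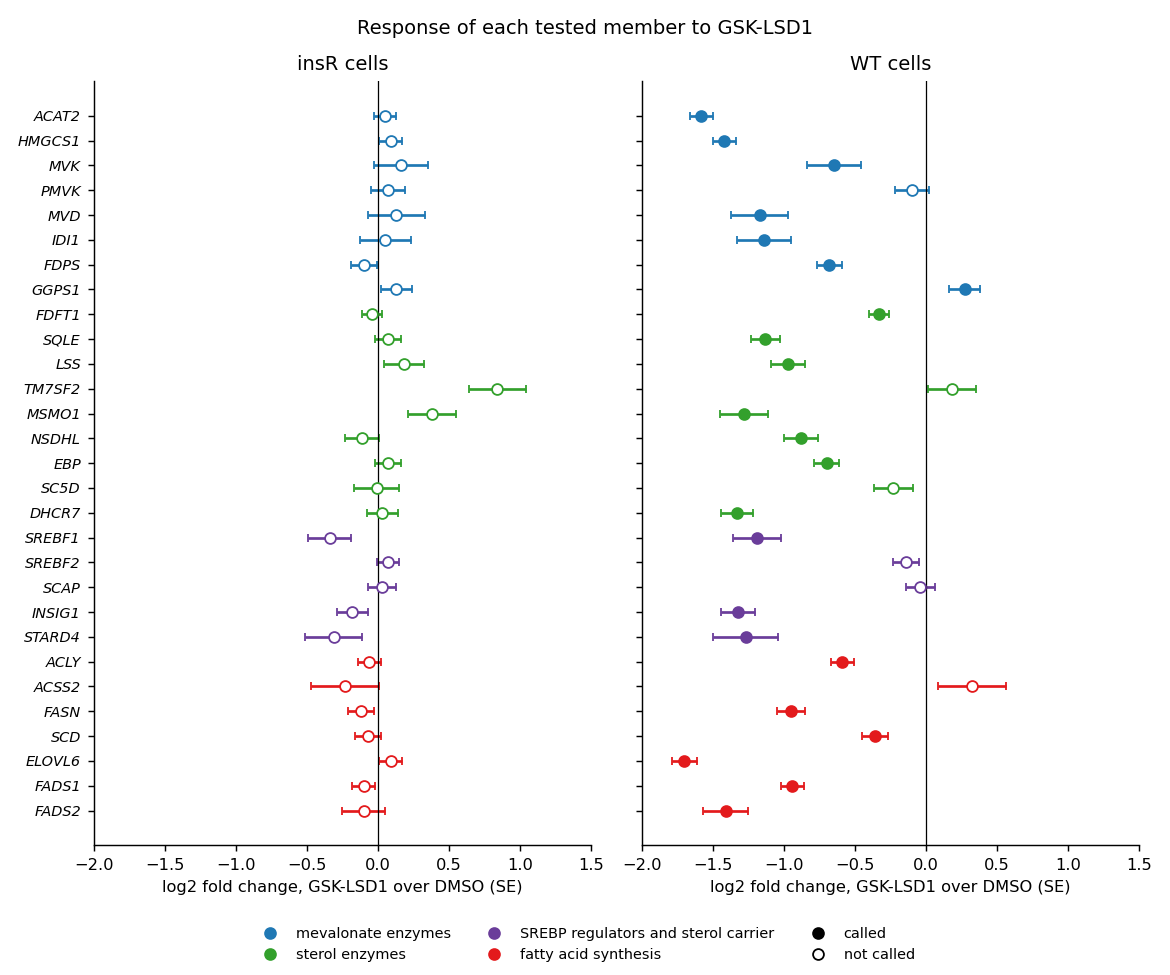
Log2 fold change of GSK-LSD1 over DMSO, with its standard error, for the 29 tested genes in insR cells (left) and WT cells (right). Filled points passed the test and open points did not, and colours mark the part of the pathway. No gene is filled in insR cells, where values lie between -0.34 and 0.84, and 23 are filled in WT cells.

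The early mevalonate enzymes fell the most within their group. ACAT2, the cytosolic thiolase that joins 2 acetyl-CoA, had 72.6, 65.5 and 66.9 CPM in WT cells under GSK-LSD1, against 198, 195 and 223 CPM in WT cells in DMSO. It fell by 66.7%, a log2 fold change of -1.58 ± 0.08 (SE, adjusted p = 2.14e-13). HMGCS1, which makes HMG-CoA, had 94.7, 101 and 99.2 CPM under GSK-LSD1, against 255, 257 and 277 CPM in DMSO, a log2 fold change of -1.42 ± 0.08 (adjusted p = 6.41e-13). In both genes every treated library stood far below every DMSO library, and the replicates of a group lay close together. On the opposite strand, ACAT2 shares exon sequence with SOD2, SOD2-OT1 and TCP1 in GENCODE 29, and HMGCS1 with AC114947.2. Such an overlap is present in 15 of the 32 genes, and the strand setting of the counts is not stated.

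Further along, MVD, which decarboxylates mevalonate diphosphate, had 7.18, 7.49 and 8.45 CPM under GSK-LSD1, against 13.5, 17.7 and 21.6 CPM in DMSO (log2 fold change -1.17 ± 0.20, adjusted p = 4.29e-05). IDI1, the isomerase of the isoprenoid units, had 17.8, 20.7 and 19.8 CPM under GSK-LSD1, against 49.5, 45.4 and 33.2 CPM in DMSO (-1.14 ± 0.19, adjusted p = 0.000135). The groups did not overlap for either gene, although the DMSO libraries were spread more widely than the treated ones. FDPS, which makes farnesyl diphosphate, fell less, to 111 ± 13.5 CPM under GSK-LSD1, against 178 ± 12.2 CPM in DMSO (SD, n = 3 each; -0.68, adjusted p = 2.88e-06). FDPS has 8 named pseudogenes that could share its reads. MVK, which phosphorylates mevalonate, fell to 15.3 ± 2.15 CPM, against 24.1 ± 4.95 CPM (SD, n = 3 each; -0.65, adjusted p = 0.00798).

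PMVK and GGPS1 did not fall. PMVK, the next kinase after MVK, had 35.4 ± 4.27 CPM under GSK-LSD1 and 38.1 ± 3.71 CPM in DMSO (SD, n = 3 each; log2 fold change -0.10 ± 0.12 SE, adjusted p = 0.538). GGPS1 makes geranylgeranyl diphosphate, which leaves the route to sterols for protein prenylation. It had 79.4, 60.9 and 76.3 CPM under GSK-LSD1, against 56.0, 55.2 and 68.6 CPM in DMSO, a log2 fold change of 0.27 ± 0.11 (SE, adjusted p = 0.0424). The ranges of the 2 groups overlapped, and the call was lost under 7 of 13 other settings, where the adjusted p reached 0.208. GGPS1 also shares exon sequence on the same strand with TBCE in GENCODE 29, so reads of the 2 genes may not be separable.

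Among the sterol enzymes, MSMO1, which removes methyl groups from early sterols, had 8.70, 8.83 and 8.55 CPM under GSK-LSD1, against 20.0, 24.2 and 18.8 CPM in DMSO (log2 fold change -1.28 ± 0.17, adjusted p = 1.71e-06). DHCR7, the reductase that turns 7-dehydrocholesterol into cholesterol, had 21.0, 20.4 and 19.1 CPM under GSK-LSD1, against 55.1, 48.5 and 47.9 CPM in DMSO (-1.33 ± 0.11, adjusted p = 1.10e-09). SQLE, the epoxidase of squalene, had 48.0, 43.0 and 42.7 CPM under GSK-LSD1, against 89.5, 101 and 100 CPM in DMSO (-1.13 ± 0.10, adjusted p = 1.50e-09). In each of these 3 genes the treated libraries sat close together and under every DMSO library. LSS, the lanosterol cyclase, fell 1.96-fold, to 33.8 ± 5.72 CPM, against 66.8 ± 7.15 CPM in DMSO (SD, n = 3 each; adjusted p = 8.00e-07). The demethylation partner NSDHL fell 1.84-fold (adjusted p = 3.38e-06), the sterol isomerase EBP 1.62-fold (adjusted p = 1.35e-06), and the squalene synthase FDFT1 1.25-fold (adjusted p = 0.000833).

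SC5D, the sterol desaturase before DHCR7, was not called, with 24.3 ± 1.48 CPM under GSK-LSD1 and 28.6 ± 4.45 CPM in DMSO (SD, n = 3 each; log2 fold change -0.23 ± 0.14 SE, adjusted p = 0.182). TM7SF2, a sterol reductase, was not called either, with 16.4 ± 0.645 CPM and 14.6 ± 2.56 CPM (0.18 ± 0.17, adjusted p = 0.431). TM7SF2 shares exon sequence on the same strand with VPS51. The sterol enzymes therefore ranged from a 2.51-fold fall in DHCR7 to values near no difference.

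The regulators separated into those that fell and those that did not pass the test. SREBF1 had 16.6, 27.6 and 18.1 CPM under GSK-LSD1, against 57.2, 45.2 and 38.2 CPM in DMSO, a 2.28-fold fall (log2 fold change -1.19 ± 0.17, adjusted p = 2.32e-05). SREBF2 had 118, 119 and 117 CPM under GSK-LSD1, against 130, 118 and 143 CPM in DMSO (-0.14 ± 0.09, adjusted p = 0.191). The treated SREBF2 libraries lay inside or at the lower edge of the DMSO range. SCAP had 140 ± 17.7 CPM and 144 ± 3.60 CPM (SD, n = 3 each; -0.04 ± 0.10 SE, adjusted p = 0.768).

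INSIG1, the retention protein that is itself a sterol-responsive target, had 17.8, 26.1 and 22.0 CPM under GSK-LSD1, against 59.3, 55.9 and 49.5 CPM in DMSO (log2 fold change -1.32 ± 0.12, adjusted p = 5.72e-09). STARD4, a cytosolic sterol carrier, had 2.65, 4.80 and 4.28 CPM under GSK-LSD1, against 9.30, 9.51 and 9.82 CPM in DMSO (-1.27 ± 0.23, adjusted p = 8.24e-05). Both genes stood at less than 50% of their DMSO level in the mean, and their groups did not overlap. STARD4 had as few as 14 reads in a library, and its error is the widest among the genes called.

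The fatty acid enzymes held the largest fall of the pathway. ELOVL6, which lengthens palmitate to stearate, had 58.0, 64.9 and 53.7 CPM under GSK-LSD1, against 206, 184 and 181 CPM in DMSO, and fell by 69.2% (log2 fold change -1.70 ± 0.09, adjusted p = 1.24e-13). FADS2, a desaturase of polyunsaturated fatty acids, had 48.6, 59.9 and 67.8 CPM under GSK-LSD1, against 181, 173 and 116 CPM in DMSO (-1.41 ± 0.16, adjusted p = 1.10e-05). The third DMSO library of FADS2 was lower than the other two and still above every treated library. FADS2 shares exon sequence with FEN1 on the same strand and with FADS1 on the opposite strand.

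FADS1, the partner desaturase, fell to 103 ± 6.93 CPM under GSK-LSD1, against 197 ± 8.05 CPM in DMSO (SD, n = 3 each; adjusted p = 1.95e-09). FASN, the synthase that builds palmitate, fell to 98.7 ± 10.2 CPM, against 189 ± 13.2 CPM (SD, n = 3 each; adjusted p = 2.55e-08). ACLY, which makes cytosolic acetyl-CoA from citrate, fell 1.51-fold (adjusted p = 7.61e-07), and SCD, which makes monounsaturated fatty acids, fell 1.28-fold (adjusted p = 0.00149). ACSS2, which makes acetyl-CoA from acetate, was the exception, with 4.92, 8.45 and 7.64 CPM under GSK-LSD1 and 6.67, 5.49 and 4.82 CPM in DMSO (log2 fold change 0.32 ± 0.24 SE, adjusted p = 0.293).

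Promoter sequence is shown for 5 of these genes, as sterol regulatory element binding proteins are known to bind short sites near the start. No binding was measured here, and its part in the fall was not tested. RefSeq promoters of build GRCh38.p14 matched 28 of the 32 genes, 9 of them with more than 1 promoter, and covered 250 bases before to 50 bases after the start. A core of the sterol regulatory element, TCACNCCA on either strand, stood in 3 of the 28 genes (10.7%), MSMO1, MVK and SREBF2, and in 4.76% of 9614 tested genes with a promoter and 4.80% of all 27305 genes with one. The NF-Y box CCAAT stood in 22 of the 28 (78.6%), against 43.8% of tested genes and 39.7% of all genes. A core followed by AT holds a CCAAT by its letters, and in these 3 genes the runs were separate. The GC box GGGCGG stood in 27 of the 28 (96.4%), against 76.8% of tested genes, and the E-box CACGTG in 4 (14.3%), against 12.6% of tested genes. By the 250 bases before the start alone, CCAAT stood in 21 of the 28 genes (75.0%), against 42.1% of tested genes.

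MSMO1 and MVK are shown because they hold the core and were called lower, and SREBF2 because it holds the core and was not called. HMGCS1 and ELOVL6 are shown because they had large falls and no such core in the window. Only this string was searched, so sites with other letters or outside the window were not counted. The 250 bases before the first listed start are printed, with the core (8 letters) and CCAAT or its complement ATTGG (5 letters) in capitals.
MSMO1, chr4:165327419-165327668, plus strand: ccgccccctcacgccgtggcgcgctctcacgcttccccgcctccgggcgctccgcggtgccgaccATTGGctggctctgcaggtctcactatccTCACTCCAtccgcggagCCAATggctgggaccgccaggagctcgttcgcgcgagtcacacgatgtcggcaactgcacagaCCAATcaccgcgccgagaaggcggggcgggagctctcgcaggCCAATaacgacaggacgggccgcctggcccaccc
MVK, chr12:109573544-109573793, plus strand: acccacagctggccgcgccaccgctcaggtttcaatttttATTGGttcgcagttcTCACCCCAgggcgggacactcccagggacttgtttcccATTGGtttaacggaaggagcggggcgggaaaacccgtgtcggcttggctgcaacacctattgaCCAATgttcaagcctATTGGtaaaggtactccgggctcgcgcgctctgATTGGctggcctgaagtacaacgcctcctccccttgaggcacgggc
SREBF2, chr22:41832855-41833104, plus strand: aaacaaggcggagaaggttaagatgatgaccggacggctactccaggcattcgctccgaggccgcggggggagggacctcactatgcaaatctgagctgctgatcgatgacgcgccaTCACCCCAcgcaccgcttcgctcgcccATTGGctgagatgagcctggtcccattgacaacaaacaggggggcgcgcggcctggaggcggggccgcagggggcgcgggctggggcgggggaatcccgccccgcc
HMGCS1, chr5:43313413-43313662, minus strand: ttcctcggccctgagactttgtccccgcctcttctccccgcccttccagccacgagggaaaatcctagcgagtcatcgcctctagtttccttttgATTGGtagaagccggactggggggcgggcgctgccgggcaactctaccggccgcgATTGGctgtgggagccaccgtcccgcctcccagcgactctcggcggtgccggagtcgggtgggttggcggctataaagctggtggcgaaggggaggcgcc
ELOVL6, chr4:110198616-110198865, minus strand: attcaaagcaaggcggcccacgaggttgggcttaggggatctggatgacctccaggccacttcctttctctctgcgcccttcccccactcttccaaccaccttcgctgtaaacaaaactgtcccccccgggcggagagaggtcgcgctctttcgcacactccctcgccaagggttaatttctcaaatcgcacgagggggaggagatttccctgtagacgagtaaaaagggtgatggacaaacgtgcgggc
MSMO1 has 1 core and 4 CCAAT boxes in its window, and MVK has 1 core and 5 boxes. SREBF2 has 1 of each, HMGCS1 has 2 boxes and ELOVL6 has neither. Among the 28 genes of the pathway with a promoter, 18 were called lower. From 250 bases before to 50 after the start, CCAAT stood in 15 of these 18 (83.3%) and in 7 of the other 10 (70.0%). The other 10 include ACACA, CYP51A1 and HSD17B7, which were not tested. ACAT2, FASN, FDFT1 and SQLE, all called lower, had no promoter listed.

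In insR cells no gene of the pathway was called between GSK-LSD1 and DMSO, where 0.505% of all tested genes were called. Summed over the 31 genes, insR libraries held 3025, 2948 and 3028 CPM under GSK-LSD1 and 3057, 3020 and 3106 CPM in DMSO. The median log2 fold change was 0.03, against -0.00 over all genes tested. An unadjusted p below 0.05 was found in 3 of the 29 genes (TM7SF2, MSMO1 and SREBF1). The share of all genes below it was not counted. DESeq2 called 1 of the 29, TM7SF2, and 93 of all 12864 genes. In TM7SF2 the 3 insR libraries under GSK-LSD1 had 12.9, 11.4 and 9.14 CPM, against 5.59, 6.10 and 7.21 CPM in insR libraries in DMSO, a log2 fold change of 0.84 ± 0.20 (SE, adjusted p = 0.0561). All treated libraries were above all DMSO libraries, at 37 to 164 reads per library over the 4 groups.

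The genes with the largest falls in WT cells were not called in insR cells. ELOVL6 had 178, 185 and 193 CPM in insR cells under GSK-LSD1, against 171, 176 and 176 CPM in insR cells in DMSO (log2 fold change 0.09 ± 0.08, adjusted p = 0.906). ACAT2 had 152, 139 and 145 CPM under GSK-LSD1, against 145, 135 and 142 CPM in DMSO (0.05 ± 0.08, adjusted p = 0.969). HMGCS1 had 128, 110 and 122 CPM, against 115, 107 and 115 CPM (0.09 ± 0.08, adjusted p = 0.895). The ranges of the treated and DMSO libraries overlapped in ACAT2 and HMGCS1, while in ELOVL6 every treated library was slightly above every DMSO library. The standard errors leave room for small differences.

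Among the remaining enzymes with large falls in WT cells, MVD had 9.99, 12.2 and 15.3 CPM in insR cells under GSK-LSD1, against 12.9, 9.90 and 11.2 CPM in insR cells in DMSO, and IDI1 had 38.7, 46.3 and 27.4 CPM, against 28.7, 38.3 and 41.7 CPM. SQLE had 74.6, 77.4 and 85.9 CPM, against 78.9, 78.7 and 68.2 CPM, and DHCR7 had 37.7, 42.3 and 37.2 CPM, against 39.8, 37.4 and 36.6 CPM. FADS2 had 185, 160 and 183 CPM under GSK-LSD1, against 170, 204 and 192 CPM in DMSO. The treated and DMSO ranges overlapped in each of these 5 genes. MSMO1 had 15.6, 18.0 and 19.0 CPM under GSK-LSD1, against 11.2, 16.2 and 13.5 CPM in DMSO, which leaned to a higher level without passing the test (0.38 ± 0.17, adjusted p = 0.56).

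None of the 5 regulators and carriers was called in insR cells. SREBF1 had 82.0, 92.7 and 80.7 CPM in insR cells under GSK-LSD1, against 96.5, 110 and 117 CPM in insR cells in DMSO, with no overlap (log2 fold change -0.34 ± 0.15, adjusted p = 0.581). INSIG1 had 46.2, 53.5 and 53.4 CPM under GSK-LSD1, against 56.7, 60.4 and 56.6 CPM in DMSO, also with no overlap (-0.18 ± 0.11, adjusted p = 0.788). STARD4 had 8.22, 9.75 and 8.83 CPM, against 9.25, 12.7 and 11.6 CPM (-0.31 ± 0.20, adjusted p = 0.807). SREBF2 had 141, 150 and 155 CPM, against 152, 133 and 139 CPM, and GGPS1 had 60.1, 53.7 and 59.8 CPM, against 51.7, 52.6 and 55.2 CPM, with overlapping ranges in both genes. Over the 29 tested genes, 2 (SREBF1 and INSIG1) had every treated insR library below every DMSO library. Another 2 (TM7SF2 and ELOVL6) had every one above. The share of all genes with such a separation in insR cells was not counted.

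**Figure D2:**
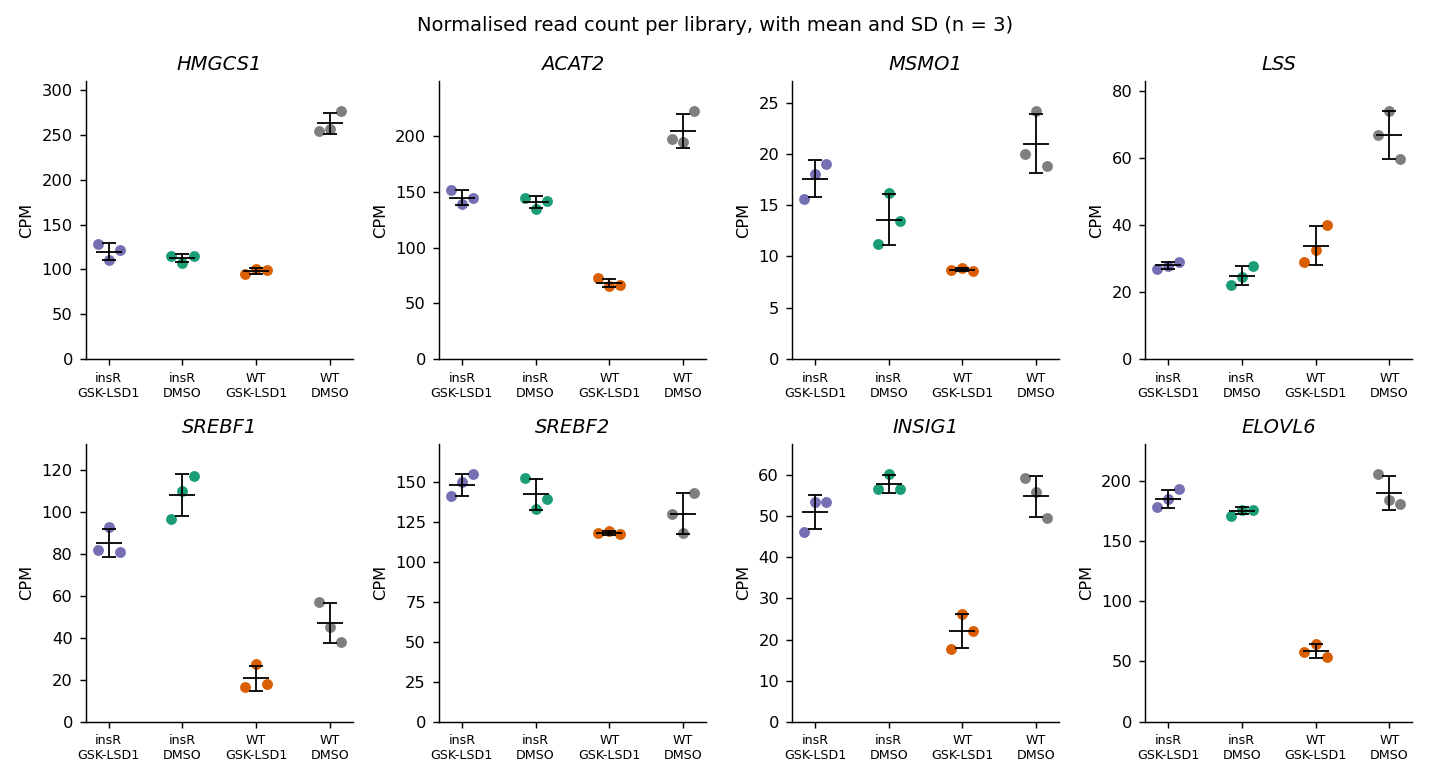
Normalised read count (CPM, linear axes from 0) of 8 genes in each library of the 4 groups, 3 points a group, with the mean and SD as bars. ELOVL6 and INSIG1 are low in WT cells under GSK-LSD1 alone, HMGCS1 and LSS are also low in both insR groups, SREBF1 is higher in both insR groups, and SREBF2 is not called within either line.

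The difference between the 2 responses was tested as an interaction, the insR response minus the WT response. It was called more positive in 21 of 29 genes, where 13.3% of all tested genes were, and more negative in 0 of 29, where 11.8% of all genes were. At an unadjusted p below 0.05 it covered 23 genes, all more positive, the further ones being TM7SF2 and SCD. The share of all genes at that unadjusted p was not counted. DESeq2 called 21 of the 29, and 2988 of all 12864 genes. The median difference was 0.83 on the log2 scale, against -0.00 over all genes tested. The largest values were 1.79 ± 0.12 for ELOVL6 (adjusted p = 9.32e-11), 1.66 ± 0.24 for MSMO1 (adjusted p = 1.61e-05) and 1.63 ± 0.12 for ACAT2 (adjusted p = 2.68e-10). FDFT1, at 0.29 ± 0.10 (adjusted p = 0.0453), was the smallest called and lost its call under 13 of 18 other settings. The 8 genes not called were the 6 that were not called in the WT response, GGPS1, and SCD (0.29 ± 0.12, adjusted p = 0.0824). The WT response, this difference and the comparison of insR with WT cells in DMSO all use the same WT DMSO libraries. The WT GSK-LSD1 libraries are likewise shared with the comparison of insR with WT cells under GSK-LSD1. The values of a gene in these comparisons are therefore not independent.

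Without drug, insR and WT cells already differed at enzymes of the sterol and mevalonate steps. In DMSO, 11 of the 29 genes were lower in insR than in WT cells, where 15.6% of all tested genes were lower, and 2 were higher, where 14.5% of all genes were. The median was -0.17, against 0.01 over all genes tested. The 11 were sterol enzymes (8 of 9 tested) and mevalonate enzymes (3 of 8), while of the 7 tested fatty acid enzymes 0 were lower, with ACLY the nearest (-0.18 ± 0.07, adjusted p = 0.0796), and 1, SCD, was higher. Among the 5 regulators and carriers SREBF1 was higher and 0 were lower.

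LSS had the largest difference, with 22.1, 24.6 and 27.8 CPM in insR cells in DMSO, against 66.9, 74.0 and 59.7 CPM in WT cells in DMSO (log2 fold change -1.44 ± 0.13, adjusted p = 2.49e-09). HMGCS1 had 113 ± 4.63 CPM in insR cells and 263 ± 12.1 CPM in WT cells (SD, n = 3 each; -1.22, adjusted p = 1.14e-11). TM7SF2 had 6.30 ± 0.826 CPM and 14.6 ± 2.56 CPM (-1.22, adjusted p = 1.93e-05), and SC5D had 12.5 ± 1.40 CPM and 28.6 ± 4.45 CPM (-1.19, adjusted p = 5.42e-07). In these 4 genes insR cells stood at less than 50% of the WT level. MSMO1 (-0.65), MVD (-0.62), ACAT2 (-0.54), DHCR7 (-0.41), NSDHL (-0.37), SQLE (-0.36) and FDFT1 (-0.30) differed less. MVK lay just short of the threshold (-0.48 ± 0.19, adjusted p = 0.0531).

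SREBF1 went the other way, at 96.5, 110 and 117 CPM in insR cells in DMSO, against 57.2, 45.2 and 38.2 CPM in WT cells in DMSO (log2 fold change 1.20 ± 0.15, adjusted p = 7.48e-06). SCD had 475 ± 54.8 CPM in insR cells and 354 ± 26.8 CPM in WT cells (SD, n = 3 each; 0.42 ± 0.09 SE, adjusted p = 0.000419). ELOVL6 (-0.12, adjusted p = 0.276), FASN (0.17, adjusted p = 0.198), FADS1 (0.14, adjusted p = 0.195), FADS2 (0.26, adjusted p = 0.233) and INSIG1 (0.08, adjusted p = 0.668) were not called. The untreated lines thus differed at the sterol end of the pathway more than at the fatty acid end by count of calls, a contrast between steps that was not itself tested.

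Stretches of chromosomes differed in level between the lines, and each gene was set beside the 25 nearest tested genes on each side of it. SREBF1, on chromosome 17, lay among neighbours whose median log2 fold change of insR over WT cells in DMSO was 0.88, with 8 of 50 below 0, and the 10 nearest on each side had a median of 1.18, close to its own 1.20. SC5D, on chromosome 11, lay among neighbours with a median of -0.62, with 44 of 50 below 0, against its own -1.19. LSS, on chromosome 21, had a neighbour median of -0.24 over 32 genes. HMGCS1 and TM7SF2, with neighbour medians of 0.02 and -0.03, lay in stretches that differed little. The share of a gene's difference that goes with its stretch of chromosome was not tested.

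**Figure D3:**
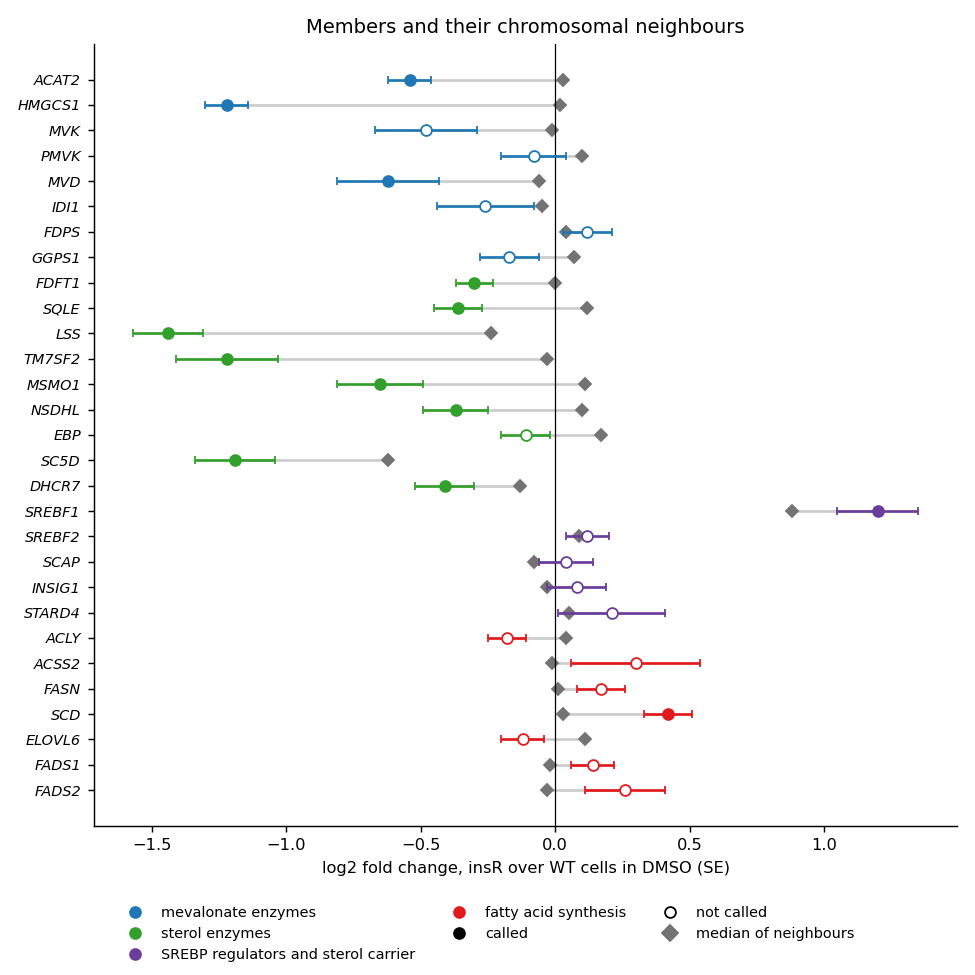
Log2 fold change of insR over WT cells in DMSO for each of the 29 tested genes (circles with standard error, filled where called) and the median of up to 25 tested neighbours on each side (grey diamonds). The diamonds of SREBF1 (0.88) and SC5D (-0.62) lie on the side of their genes, while those of HMGCS1 (0.02) and TM7SF2 (-0.03) lie near 0.

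Under GSK-LSD1, 20 of the 29 genes were higher in insR than in WT cells, where 27.0% of all tested genes were higher, and 3 were lower, where 27.5% of all genes were. The median was 0.69, against -0.01 over all genes tested. SREBF1 differed the most, at 85.1 ± 6.60 CPM in insR cells and 20.8 ± 5.97 CPM in WT cells (SD, n = 3 each; 4.14-fold, adjusted p = 1.39e-08), and its 50 neighbours had a median of 1.07 in this comparison. ELOVL6 was 3.16-fold higher (adjusted p = 7.42e-14), FADS2 2.97-fold (adjusted p = 2.37e-06), INSIG1 2.32-fold (adjusted p = 1.37e-08) and ACAT2 2.13-fold (adjusted p = 9.57e-11). SC5D (-0.97), TM7SF2 (-0.56) and GGPS1 (-0.32) were the 3 lower genes.

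Read across the 4 groups, the 22 genes that fell in WT cells were sorted by their calls between insR and WT cells. These calls reuse the WT libraries that gave the fall. A lower level of insR cells in DMSO, or a higher one under GSK-LSD1, is therefore partly built in. The share of all genes with each pattern was not counted. In 10 of the 22 (IDI1, FDPS, EBP, INSIG1, STARD4, ACLY, FASN, ELOVL6, FADS1 and FADS2) insR and WT cells were not called different in DMSO and insR cells were higher under GSK-LSD1. In 7 (ACAT2, HMGCS1, MVD, SQLE, MSMO1, NSDHL and DHCR7) insR cells were lower in DMSO and higher under GSK-LSD1. MVD lost both calls when a library was left out (adjusted p up to 0.109 in DMSO and 0.0715 under GSK-LSD1), and so did NSDHL (up to 0.0932 in DMSO and 0.0862 under GSK-LSD1). HMGCS1 shows how close such levels can be, with 45.6% of its WT DMSO level in insR cells under GSK-LSD1, 42.8% in insR cells in DMSO and 37.4% in WT cells under GSK-LSD1.

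FDFT1 and LSS were lower in insR cells in DMSO and not called different under GSK-LSD1. FDFT1 had 170 ± 5.87 CPM in insR cells under GSK-LSD1, 175 ± 4.02 CPM in insR cells in DMSO, 171 ± 8.67 CPM in WT cells under GSK-LSD1 and 215 ± 2.66 CPM in WT cells in DMSO (SD, n = 3 each). LSS had 27.9 ± 1.03 CPM in insR cells under GSK-LSD1, 24.8 ± 2.86 CPM in insR cells in DMSO, 33.8 ± 5.72 CPM in WT cells under GSK-LSD1 and 66.8 ± 7.15 CPM in WT cells in DMSO. For both genes only the WT DMSO libraries stood high. SREBF2, not called within either line, was 1.26-fold higher in insR than in WT cells under GSK-LSD1 (adjusted p = 0.00207).

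Genes of neighbouring pathways, in 5 further lists with 79 tested genes, were set beside these for comparison. In WT cells 12 of the 79 were higher and 18 lower under GSK-LSD1, with a median of -0.10, where 22.7% of all tested genes were higher and 22.5% lower with a median of 0.01. In insR cells 0 of 79 were called by edgeR, where 0.505% of all genes were, with 7 at an unadjusted p below 0.05. The share of all genes at that unadjusted p was not counted. Of 18 tested genes of SREBP processing and sterol handling, 5 rose and 3 fell, with a median of 0.09, which is near those shares of all genes. NPC2, which carries cholesterol out of lysosomes, rose to 128 CPM under GSK-LSD1, against 66.1 CPM in DMSO in the mean (log2 fold change 0.95, adjusted p = 2.31e-09). LBR, a nuclear envelope protein with sterol reductase activity, rose by 0.45 (adjusted p = 1.97e-05), and LPIN1, a phosphatidate phosphatase, by 0.52 (adjusted p = 0.000334).

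Of 20 tested genes of fatty acid elongation and activation 7 fell, where 22.5% of all tested genes did, and 2 rose, where 22.7% did, with a median of -0.21. ACSL4 (-0.94, adjusted p = 7.60e-10) and ACSL3 (-0.80, adjusted p = 2.30e-06), which load fatty acids onto coenzyme A, and HSD17B12 (-0.69, adjusted p = 3.29e-07), a reductase of fatty acid elongation, fell. Of 19 tested genes of fatty acid oxidation 2 rose and 5 fell, beside the same 22.7% and 22.5% of all genes, with ACAA1, a peroxisomal thiolase, at 0.79 (adjusted p = 8.24e-06), and ETFA (-0.53, adjusted p = 0.00021) and ETFDH (-0.86, adjusted p = 0.000786), which pass electrons to the respiratory chain, lower.

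The liver X receptor and sterol export list had 2 higher and 1 lower of 10, and the 22.7% and 22.5% of all genes leave nothing to read from these counts. The receptor gene NR1H2 fell by 0.64 (adjusted p = 4.98e-05), OSBPL1A, an oxysterol binding protein relative, rose by 0.40 (adjusted p = 0.00448), and MYLIP, a ubiquitin ligase that liver X receptors induce, rose by 0.38 (adjusted p = 0.01). The branch from isoprenoids to ubiquinone, dolichol and prenylated proteins had 1 higher and 2 lower of 12, likewise no more than the shares of all genes, PDSS1 (-0.96, adjusted p = 0.000319) and NUS1 (-0.72, adjusted p = 0.00509) being lower and FNTA (0.34, adjusted p = 0.0134) higher. PDSS1 makes the side chain of ubiquinone, NUS1 works in dolichol synthesis, and FNTA is a subunit of protein prenyltransferases.

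**Figure D4:**
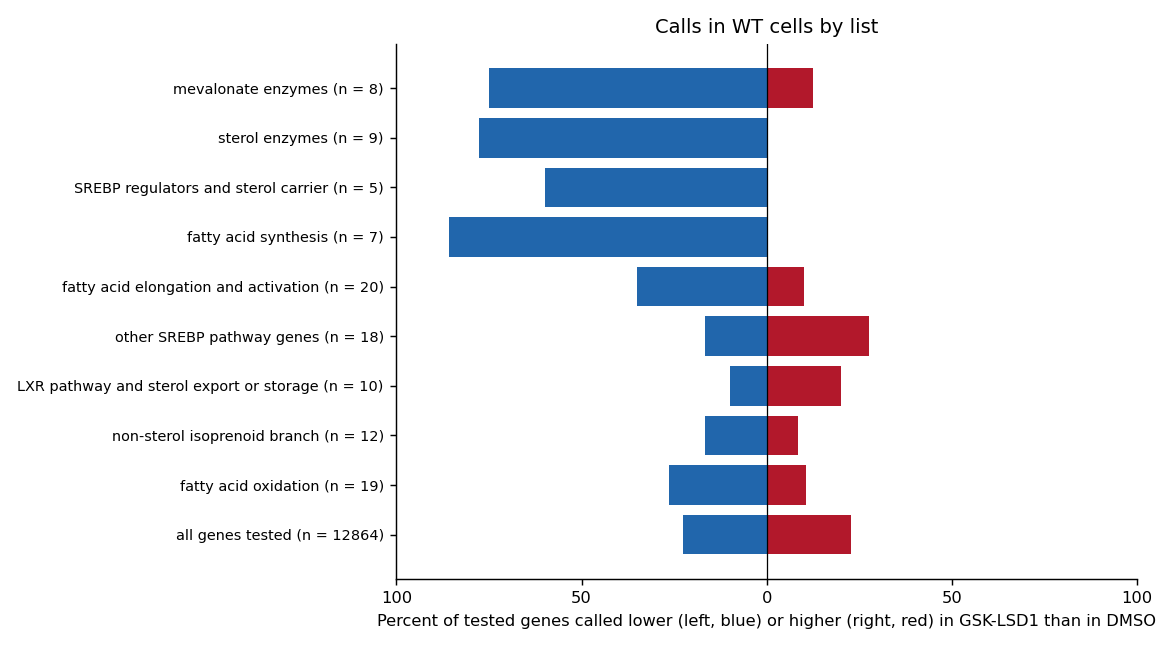
Percent of tested genes called lower (blue, left) and higher (red, right) in WT cells under GSK-LSD1 than in DMSO. Bars are given for the 4 parts of the pathway, 5 neighbouring lists and all 12864 genes tested, where 22.5% were lower and 22.7% higher. The 4 parts of the pathway run mostly to the left, and the neighbouring lists run to both sides.

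Marker genes of other cell states moved in the same libraries. All 9 tested erythroid markers were lower in WT cells under GSK-LSD1, and the 10 listed summed to 324 to 345 CPM under GSK-LSD1, against 2474 to 2597 CPM in DMSO, with SLC4A1 at 0 in treated cells. The same sum was 4232 to 4734 CPM in insR cells under GSK-LSD1 and 5272 to 6122 CPM in insR cells in DMSO. All 3 tested monocyte markers were higher in WT cells under GSK-LSD1, the 8 listed summing to 271 to 300 CPM, against 94.7 to 118 CPM in DMSO, with the macrophage genes CD163 and MRC1 at 0 in every library. Of 5 tested myeloid and progenitor markers 4 were higher in WT cells under GSK-LSD1, PTPRC (945 CPM, against 431 CPM in DMSO, means), CD34 (696 against 295 CPM), CD33 (119 against 55.6 CPM) and SPI1 (22.8 against 10.3 CPM), and KIT was lower (253 against 407 CPM). The 6 listed summed to 1978 to 2078 CPM under GSK-LSD1, against 1194 to 1207 CPM in DMSO. Of 3 tested megakaryocyte markers ITGA2B was higher (1182 against 735 CPM), GP9 lower (3.08 against 9.63 CPM) and GP1BA not called, the 5 listed summing to 1138 to 1314 CPM under GSK-LSD1, against 771 to 825 CPM in DMSO, with PF4 at 0 in every library. Of 7 cell cycle genes, 4 (CCNB1, CCNA2, CDK1 and MCM2) were lower in WT cells under GSK-LSD1, the 7 summing to 1992 to 2149 CPM, against 2283 to 2407 CPM in DMSO. The part of these shifts in the fall of the pathway was not tested.

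Uniquely mapped reads outside genes made up 18.4% to 19.5% in WT cells under GSK-LSD1, against 16.3% to 16.7% in WT cells in DMSO. Mitochondrially encoded genes took 3.97% to 4.54% of reads in genes in WT cells under GSK-LSD1, against 2.93% to 3.55% in WT cells in DMSO. Their part in the results was not tested.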

How the data were processed

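Libraries from polyA RNA were prepared with a 3′ kit (QuantSeq FWD) per the labels' protocols. The deposited counts are whole reads per Ensembl gene; the submitters' processing notes name bcl2fastq 2.2, STAR 2.6.0c, HTSeq 0.9.1, DESeq2 and build hg19, and state neither annotation nor strand setting in the sources used here. The table of normalised values was not used. Rows of HTSeq totals were left out of library sizes; reads outside genes are given as shares of uniquely mapped reads. Depth was 4837096 to 10141155 reads in genes, and replicate counts of a group differed beyond sampling noise in every pair.

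Counts from all 12 libraries were fitted in edgeR 4.0.16 (R 4.3.3; filterByExpr, TMM, robust quasi-likelihood test, 1 mean per group), with p adjusted by Benjamini-Hochberg over 12864 genes and called below 0.05. The standard error is the log2 fold change divided by the square root of its F. CPM uses TMM-scaled library sizes. Alternatives were DESeq2 1.42.0, limma 3.58.1 (voom), other scalings, no filter beyond 1 count, a replicate block, fewer groups and leaving out each library. Symbols, promoters and overlaps came from RefSeq and GENCODE 29 tables, whose GRCh38 build differs from hg19. From these tables came names, gene order along chromosomes, exon overlaps and the promoters used for motif shares.

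The members and lists were chosen with earlier results of these data known. Values in every library are given for SREBF1, SREBF2, INSIG1, for members called in the WT response with an absolute log2 fold change of at least 1, and for GGPS1, called in the opposite direction and of each other list the 3 called members of lowest p are named.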

Additional observations from a re-analysis of the deposited data

Results flagged for a closer look

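The response to GSK-LSD1 differed between insR and WT cells in 21 genes by the test of the interaction (insR response minus WT response, log2 scale). Among mevalonate enzymes the difference was 1.63 for ACAT2, 1.51 for HMGCS1, 0.80 for MVK, 1.30 for MVD, 1.19 for IDI1 and 0.58 for FDPS. Among sterol enzymes it was 0.29 for FDFT1, 1.20 for SQLE, 1.15 for LSS, 1.66 for MSMO1, 0.76 for NSDHL, 0.77 for EBP and 1.36 for DHCR7. Among regulators and carriers it was 0.85 for SREBF1, 1.14 for INSIG1 and 0.95 for STARD4. Among fatty acid enzymes it was 0.53 for ACLY, 0.83 for FASN, 1.79 for ELOVL6, 0.84 for FADS1 and 1.31 for FADS2. Each of these genes was called lower under GSK-LSD1 in WT cells and was not called in insR cells. The groups held 3 libraries, too few to search for a single library apart from the others.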

How the results depend on the processing

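Alternatives were computed for every count of calls, for the members called in a comparison or near the threshold, and for SREBF1, SREBF2 and INSIG1. None of these changed direction. Other members that were not called, such as PMVK, SCAP and ACSS2, were not followed singly. With no filter beyond 1 count, 3 members were called higher and 12 lower in insR than in WT cells in DMSO. At that setting 3925 of all 27370 genes tested were called in either direction. The member called higher beyond SREBF1 and SCD was not followed singly. In the insR response 1 member, TM7SF2, was called with no filter beyond 1 count (adjusted p = 0.0311) and with DESeq2 (adjusted p = 0.0405), and leaving out each library gave 0 to 1 calls, the 1 being TM7SF2 without the third insR GSK-LSD1 library (adjusted p = 0.0481). All genes called there numbered 65, against 118 with no filter beyond 1 count and 28 to 45 when a library was left out. Of the calls, 22 of 23 in the WT response, 18 of 21 in the difference, 11 of 13 for insR against WT in DMSO and 19 of 23 under GSK-LSD1 held in every alternative run. GGPS1 lost its WT call in 7 of 13 settings, among them leaving out WT DMSO replicate 1 (adjusted p = 0.177) or 2 (0.208) or WT GSK-LSD1 replicate 1 (0.159) or 3 (0.161). FDFT1 lost its difference in 13 of 18 settings (adjusted p up to 0.116). MVK lost its difference without any 1 of WT DMSO replicate 3, WT GSK-LSD1 replicates 2 and 3, insR DMSO replicates 2 and 3 and insR GSK-LSD1 replicate 3 (adjusted p 0.0555 to 0.115), and STARD4 without insR GSK-LSD1 replicate 2, WT GSK-LSD1 replicate 1 or the first insR DMSO library (0.0567 to 0.0716). SCD gained the difference without insR DMSO replicate 3 (0.0178) or WT DMSO replicate 3 (0.0344), and TM7SF2 without insR GSK-LSD1 replicate 3 (0.0372). In DMSO, MVD lost its call without insR DMSO replicate 2 (0.0764) or WT DMSO replicate 3 (0.109), and NSDHL without insR DMSO replicate 1 (0.0548) or 3 (0.0738) or WT DMSO replicate 1 (0.0596) or 3 (0.0932). MVK gained a call there in 5 of 13 settings (adjusted p down to 0.0119). Under GSK-LSD1, MVD (0.0715) and TM7SF2 (0.0806) lost theirs without insR GSK-LSD1 replicate 3, NSDHL (up to 0.0862) without WT GSK-LSD1 replicate 2 or 3, and GGPS1 (up to 0.0786) without insR GSK-LSD1 replicate 2 or WT GSK-LSD1 replicate 1 or 3, while LSS gained one with upper-quartile scaling (0.0318) or without WT GSK-LSD1 replicate 1 (0.0174). The cause was not tested. No pairing by replicate number was seen. Deviations of same-numbered libraries correlated at -0.169 to 0.198, with 3 of 18 over 0.1. Those of other-numbered libraries correlated at -0.313 to 0.289, with 5 of 36 over 0.1. With 3 libraries in each group, this check cannot exclude pairing. With the replicate block the counts of members called were 23 in the WT response, 0 in the insR response, 20 in the difference, 14 in DMSO and 23 under GSK-LSD1. In the same order, 5818, 60, 3198, 3897 and 6994 of all 12864 genes were called. FDFT1 lost its difference there (adjusted p = 0.0526), and MVK gained the DMSO call (adjusted p = 0.0339). Depth limits genes such as STARD4 and ACSS2 most, and CYP51A1 and HSD17B7 could not be tested.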
